A study of Mus musculus with 8 samples.

Results

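Collagen chain genes were read in the gastrocnemius, a fast calf muscle, of mice with and without Bcat2. They were taken as every row of the FPKM table whose symbol is Col, a number, the letter a and a number, which gave 44 genes among 38741 distinct symbols, each on 1 row. Of these, 27 had a mean of at least 1 FPKM over the 8 mice and entered the test across 11118 genes, and 17 lay under that level. FPKM scales the reads of a gene to its exon length and to the mapped reads of the library, so levels of different chains can be compared.

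All 8 mice were males on a C57BL6 background, 4 labelled wild type (WT1 to WT4) and 4 homozygous for the Bcat2tm1.2Clyn allele (KO5 to KO8). Bcat2 encodes BCATm, the mitochondrial enzyme of the first step of branched-chain amino acid breakdown. Controls were aged 9 to 10 weeks and weighed 22 to 25 g, while knockouts were aged 10 to 11 weeks and weighed 15 to 24 g. Every mouse, control or knockout, and its dam had a free choice between chow and a purified diet without branched-chain amino acids. The labels name no Cre and no tissue to which the allele is limited. Labels number the knockouts 1 to 4 and the columns 5 to 8, so no age or weight was tied to a knockout column.

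FPKM summed to between 691168 and 896190 per library, and depth relative to WT2 ran from 0.435 to 1.22. Muscle fibre markers (5 genes, such as Ckm, the muscle creatine kinase) summed to between 28164 and 37079 FPKM in every library, so the labelled tissue was present in all. That sum is mostly Ckm and Tnnt3. Of its 5 genes, 2 were lower in knockouts at an unadjusted limma p under 0.05, against 7.33% of all tested genes. They were Myh4 (4044 and 2616 FPKM, wild-type and knockout means) and Ttn (57.5 and 34.3 FPKM). Schwann cell markers had 4 of 4 tested members above 0, where 63.6% of all tested genes lie below 0. Their median was 0.50 on the log2 scale, against -0.12 for all tested genes. Of them, Mbp (14.2 and 25.6 FPKM) was higher at that level, against 2.99% of all tested genes. The part of either list in the collagen results was not tested. Adipocyte markers stood apart in WT1 and KO6, at sums of 6433 and 2590 FPKM against 56.3 to 534 FPKM in the other 6 mice. Skin epithelium markers stood apart in KO6, at 464 FPKM against at most 2.64 FPKM. Tendon markers were highest in KO7, WT3 and WT4, at 287, 247 and 244 FPKM, against 58.4 to 129 FPKM in the other 5 mice. The median of all tested genes in KO8 lay at -0.35 on the log2 scale relative to the mean of the mice, against -0.07 to 0.16 in the others.

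Collagens are trimers of chains wound into a triple helix and are the main proteins of the extracellular matrix. Fibrillar types I, III and V build the fibres of tendon and of the connective tissue sheaths around muscle and its fibres, type IV forms the network of the basement membrane that wraps each muscle fibre and capillary, and type VI forms beaded filaments that join this membrane to the fibres. In muscle the chains are made mostly by fibroblasts, with type IV and some others also from endothelial and muscle cells. Mutations of type VI chains cause Ullrich and Bethlem muscle disease, and loss of Col15a1 in mice causes a mild myopathy.

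The comparison asked how the chains differ between muscle with and without BCATm. Collagen FPKM summed over the 44 chains read 464, 248, 471 and 421 in WT1 to WT4 and 249, 143, 226 and 178 in KO5 to KO8. The knockout mean of this sum was 49.7% of the wild-type mean, but WT2 read below KO5, so the groups overlapped by that pair. Fibrillar chains gave 63.0% of the sum in wild type and 59.9% in knockouts, type VI 14.2% and 12.4%, and type IV 11.7% and 12.0%.

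None of the 27 tested chains passed the adjusted threshold of 0.05 (0 chains, limma with Benjamini-Hochberg adjustment over all genes), against 0.027% of all tested genes in either direction and 0.018% with lower knockout values. At an unadjusted limma p under 0.05, 11 of the 27 chains (40.7%) had lower knockout values, against 7.33% of all tested genes, and 0 had higher values, against 2.99%. Groups that did not overlap were found for 7 chains (25.9%) with all knockouts lower, against 4.68% of all tested genes, and for 0 with all knockouts higher, against 2.08%. The median difference of the 27 chains was -0.50 in log2(FPKM + 1), knockout minus wild type, where that of all tested genes was -0.12. A difference below 0 was found in 25 chains (92.6%), against 63.6% of all tested genes, and one below the all-gene median in 23 (85.2%), against 50.0%. Col4a5, Col26a1 and Col17a1 reached the filter through 1 genotype only. With no filter, 13 of 44 chains (29.5%) were lower at an unadjusted p under 0.05, against 4.76% of 21847 genes, the added 2 being Col6a6 and Col9a3. Median-ratio and quantile scaling moved the all-gene median from -0.12 to -0.002 and -0.035, and then 10 and 11 chains were lower at that level, against 5.16% and 5.86% of all tested genes. The median of the chains was then -0.41 and -0.40.

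**Figure D1:**
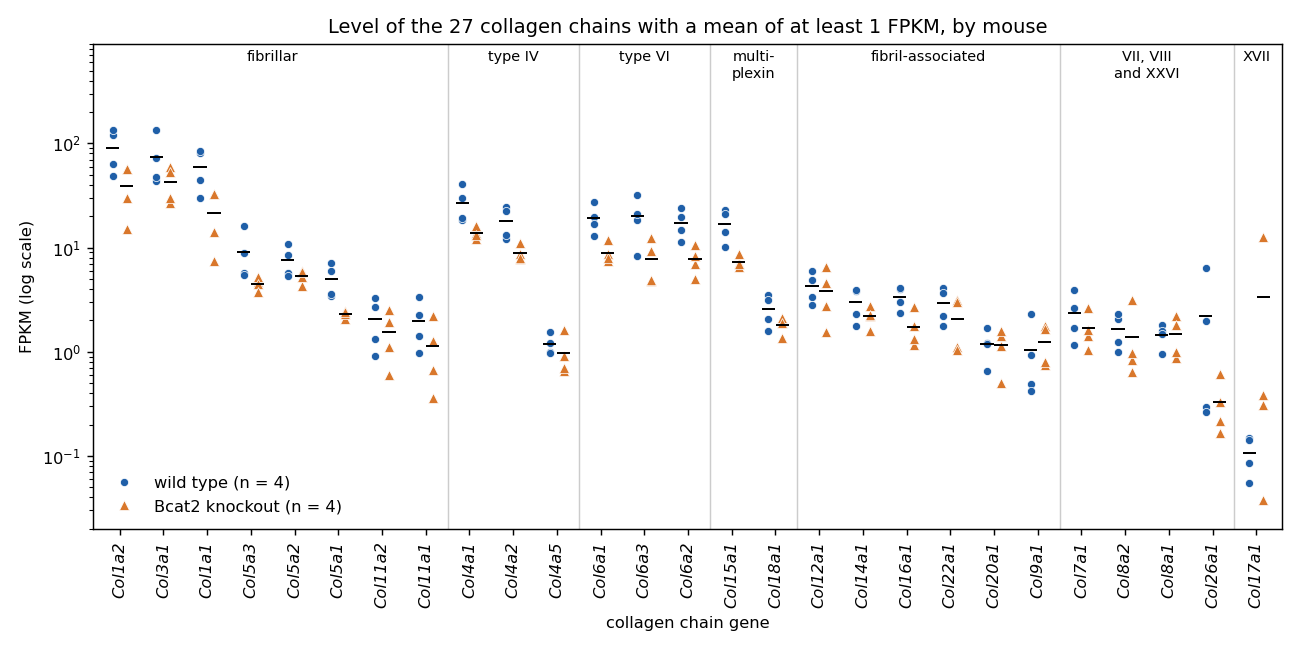
FPKM (log scale) of the 27 chains with a mean of at least 1 FPKM, grouped by collagen class, with 1 point per mouse (circles, wild type; triangles, Bcat2 knockout; n = 4 each) and bars at the group means. Type I and III chains are the highest, the bars of most chains stand lower in knockouts, those of types I, IV, VI and XV among them, and the single high point of Col17a1 is KO6 at 12.7 FPKM.

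Tested chains were long and rich in GC, with a median longest transcript of 5.93 kb and 56.4% GC against 3.05 kb and 49.7% over all tested genes. Among all tested genes, those with a transcript of at least 4 kb had a median difference of -0.20 and the shorter ones of -0.07, so the median was lower among long genes. After a trend on length and GC was removed in each mouse, the median of the chains was -0.37. The trend was fitted over the tested genes and also takes out their general shift, so this median is not on the same base as the one before. Then 7 of the 27 tested chains (25.9%), all among the 11 above, were lower at an unadjusted p under 0.05, against 6.58% of all genes. These were Col1a1, Col5a1, Col4a1, Col4a2, Col6a1, Col6a2 and Col15a1. Among the 11 chains, Col1a1, Col6a1, Col6a2 and Col16a1 overlap no other annotated gene, and the others do, so reads of those can be shared. In bulk tissue, fewer cells of a type and less RNA per cell cannot be told apart.

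Among the fibrillar chains, all 8 tested had lower means in knockouts, with a class median of -0.74. Type I and III chains were the most abundant collagens of the muscle. Col1a2, the second chain of type I collagen and the highest of all 44, read 63.0, 49.0, 119 and 133 FPKM in WT1 to WT4 and 56.3, 15.0, 56.3 and 29.6 FPKM in KO5 to KO8. WT3 and WT4 were far above the other mice, and KO5 and KO7 stood between WT2 and WT1. Its means were 91.1 ± 41.3 and 39.3 ± 20.5 FPKM (SD, n = 4 each). The difference was -1.25 (SE 0.48, limma adjusted p = 0.48, exact permutation p = 0.114). The unadjusted limma p of Col1a2 was under 0.05 in 12 of 20 alternatives, and not without WT3, WT4, KO6 or KO8, each left out alone. Col1a1 (mm10 chromosome 11, 94936224 to 94953042), the major chain of type I, read 44.8, 30.0, 80.3 and 84.4 FPKM in the controls, against 32.5, 7.47, 32.4 and 14.3 FPKM in the knockouts. Here WT2 lay within the knockout range, and KO6 was the lowest by far. The knockout mean was 36.2% of the wild-type mean, the lowest share among the fibrillar chains over 1 FPKM. The difference was -1.52 (SE 0.51, limma adjusted p = 0.48, exact permutation p = 0.0857).

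WT3 and WT4, the controls with the highest tendon marker sums, also had the highest type I chains. KO7, with the highest tendon sum, read 32.4 FPKM of Col1a1, close to WT2. The tendon list had 5 of 6 tested members below 0, where 63.6% of all tested genes are, a median of -0.52 against -0.12, and 0 members at an unadjusted limma p under 0.05. Without WT3, WT4 and KO7, the Col1a1 difference was -1.21 and that of Col1a2 -0.90, neither at an unadjusted limma p under 0.05. In that set 7 of 24 tested chains were lower at this level, against 1.72% of all genes: Col5a1, Col4a1, Col4a2, Col6a1, Col6a2, Col6a3 and Col15a1. The part of tendon RNA in the type I result was not tested.

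Col3a1, the chain of type III collagen in soft connective tissue, had a different order of mice. It read 134, 43.1, 72.5 and 47.5 FPKM in the controls, against 60.0, 26.8, 30.1 and 53.2 FPKM in the knockouts, so WT1 was highest and the groups overlapped widely. The difference was -0.72 (95% interval -1.64 to 0.19, limma adjusted p = 0.50). It was -0.39 without WT1 and -0.20 without WT1 and KO6.

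Type V chains, which nucleate type I fibrils and limit their width, were less abundant and closer among knockouts. Col5a1 (chromosome 2, 27886425 to 28039514) read 6.01, 3.45, 7.13 and 3.55 FPKM in the controls, against 2.45, 2.07, 2.28 and 2.42 FPKM in the knockouts. No knockout reached the lowest wild-type mouse. The difference was -0.82 (SE 0.22, limma adjusted p = 0.48, exact permutation p = 0.0286, the smallest that 4 against 4 mice can give). Col5a3, the type V chain with the highest mean over all mice, read 15.95, 5.68, 8.91 and 5.49 FPKM in the controls. In the knockouts it read 4.64, 5.17, 4.48 and 3.72 FPKM, also with no overlap, and WT1 was well above the rest (difference -0.75, limma adjusted p = 0.48). Without WT1 the Col5a3 difference was -0.46, and its unadjusted p was under 0.05 in 14 of 20 alternatives. Col5a2, which pairs with Col5a1 in the common trimer, read 5.37 to 10.8 FPKM in the controls, against 4.31 to 5.98 FPKM in the knockouts (difference -0.40, 95% interval -0.89 to 0.10). Col11a1 and Col11a2, the type XI chains known from cartilage and present in tendon, had wild-type means of 1.99 and 2.04 FPKM and knockout means of 1.13 and 1.54 FPKM, with groups that overlapped. Their highest mouse was WT4, and cartilage markers were near 0 (sums of 0.309 to 1.58 FPKM over 6 markers). The other fibrillar chains, Col24a1, Col27a1 and Col2a1, the cartilage collagen, were under the filter, at 8-mouse means from 0.149 to 0.769 FPKM.

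**Figure D2:**
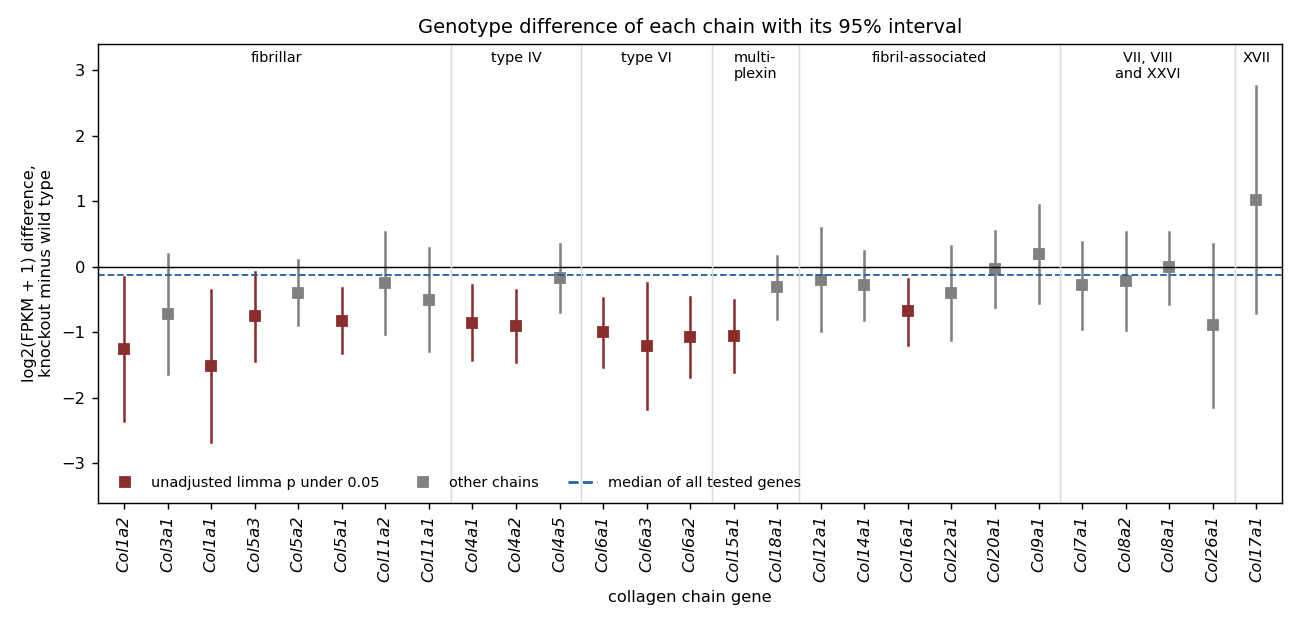
Difference in log2(FPKM + 1) of each tested chain, knockout minus wild type, with its 95% interval from limma, by collagen class. The 11 chains with an unadjusted p under 0.05 (dark) all lie below 0, and the dashed line marks the all-gene median of -0.12.

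Type IV collagen was carried by 2 chains, Col4a1 and Col4a2, which make the common basement membrane trimer. Col4a1 (chromosome 8, 11198423 to 11312826) read 40.3, 18.4, 29.6 and 19.2 FPKM in the controls, against 13.7, 12.0, 16.3 and 13.1 FPKM in the knockouts. Col4a2 (chromosome 8, 11312805 to 11449287) read 24.4, 12.2, 22.7 and 13.3 FPKM in the controls, against 8.75, 7.74, 11.0 and 7.94 FPKM in the knockouts. In both, every knockout lay below every wild-type mouse, and WT1 and WT3 were the highest. The differences were -0.85 (SE 0.25) and -0.91 (SE 0.24), with limma adjusted p = 0.48 and exact permutation p = 0.0286 for each. These genes lie head to head and their 5′ ends overlap by 22 bases, so reads there cannot be assigned without strand. Col4a5, a chain of the other type IV trimers, was near the filter at 1.18 ± 0.267 and 0.966 ± 0.447 FPKM (SD, n = 4 each), a difference of -0.17 (95% interval -0.69 to 0.35). Col4a3, Col4a4 and Col4a6 had means of at most 0.251 FPKM in either genotype.

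Endothelial cells also make type IV chains. Of their 6 markers, 6 had a difference below 0, against 63.6% of all tested genes, with a median of -0.56. At an unadjusted limma p under 0.05, 3 were lower (Cdh5, Kdr and Tie1), against 7.33% of all tested genes, and 0 passed the adjusted threshold. Their sums ran from 46.5 to 78.2 FPKM in wild type and from 27.8 to 51.4 FPKM in knockouts, highest in WT1 and WT3 as were Col4a1 and Col4a2. That order is not particular to them. Among wild types the median deviation of all tested genes was also highest in WT1 and WT3, at 0.11 and 0.16, against -0.07 in WT2 and -0.03 in WT4. The part of endothelial cells in the type IV result was not tested.

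Type VI collagen, the microfibril-forming type of the muscle matrix, had the lowest class median, -1.07, over its 3 tested chains. Col6a1 (chromosome 10, 76708792 to 76726168) read 19.8, 13.03, 27.4 and 16.8 FPKM in the controls, against 8.63, 7.43, 11.8 and 7.98 FPKM in the knockouts. The knockout mean was 46.5% of the wild-type mean, with no overlap (difference -1.0, SE 0.23, limma adjusted p = 0.48). Col6a2 (chromosome 10, 76595762 to 76623630), its neighbour 85.2 kb away, read 19.7, 11.4, 23.8 and 14.6 FPKM and then 6.97, 5.03, 10.6 and 8.25 FPKM, again with no overlap (difference -1.07, SE 0.27, limma adjusted p = 0.48). In both genes WT3 was the highest wild-type mouse and KO7 the highest knockout.

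Col6a3 (chromosome 1, 90765923 to 90843971), the long chain that completes the type VI trimer, did not follow the other type VI chains mouse by mouse. It read 32.1, 18.6, 8.21 and 20.8 FPKM in the controls, against 12.4, 9.18, 4.76 and 4.85 FPKM in the knockouts. WT3, the highest mouse for Col6a1, was the lowest wild-type mouse for Col6a3 and lay below KO5 and KO6. The mean was lower in knockouts by 1.21 in log2(FPKM + 1) with a wide interval from -2.17 to -0.25 (limma adjusted p = 0.48, exact permutation p = 0.0857). The unadjusted limma p of Col6a3 was under 0.05 in 15 of 20 alternatives, and not without WT1, KO7 or KO8. Col6a6, Col6a5 and Col6a4, which can take the place of the third chain, were at most 0.632 FPKM in any mouse. Of these, Col6a6 read 0.312 to 0.632 FPKM in the controls, against 0.0568 to 0.246 FPKM in the knockouts.

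Multiplexins are collagens of the basement membrane zone whose ends release antiangiogenic fragments. Col15a1 (chromosome 4, 47208161 to 47313167), which links the muscle basement membrane to fibrils, had the smallest unadjusted p of all chains and stood 23rd by p among all tested genes. It read 22.7, 10.2, 20.9 and 13.99 FPKM in the controls, against 6.46, 7.05, 8.67 and 6.90 FPKM in the knockouts. The knockouts were close together and all below WT2, the lowest control. The difference was -1.06 (SE 0.24, 95% interval -1.61 to -0.51, limma adjusted p = 0.48, exact permutation p = 0.0286). Col18a1, the source of endostatin, read 1.57 to 3.48 FPKM in the controls, against 1.36 to 2.09 FPKM in the knockouts, with overlap (difference -0.31, 95% interval -0.79 to 0.17).

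Promoters are given as RefSeq windows (GRCm38.p6) of the 250 bases before the annotated start, for some of the 7 chains with no overlap between groups. Col4a1, Col4a2 and Col5a3, also among the 7, were not taken up for printing. Of the windows of Col5a1, Col6a1, Col6a2 and Col15a1, those that touch an annotated exon are not printed, which leaves Col5a1 (chr2:27886175-27886424, plus strand), Col6a2 (chr10:76623631-76623880, minus strand) and Col15a1 (chr4:47207762-47208011, plus strand), 1 from each of 3 classes. Each is written 5′ to 3′ on the gene's strand, with GC boxes (GGGCGG or its reverse complement CCGCCC) in capitals.
Col5a1: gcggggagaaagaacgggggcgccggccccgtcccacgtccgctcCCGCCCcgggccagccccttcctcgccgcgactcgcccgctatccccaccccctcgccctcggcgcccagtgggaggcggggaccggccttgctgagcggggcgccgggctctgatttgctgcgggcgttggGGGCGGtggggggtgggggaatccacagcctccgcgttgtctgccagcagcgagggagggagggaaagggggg
Col6a2: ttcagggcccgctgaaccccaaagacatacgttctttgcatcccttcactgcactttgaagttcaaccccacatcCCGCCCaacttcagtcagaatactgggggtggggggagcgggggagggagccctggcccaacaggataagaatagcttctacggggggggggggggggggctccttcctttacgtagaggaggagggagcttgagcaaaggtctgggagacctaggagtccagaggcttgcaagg
Col15a1: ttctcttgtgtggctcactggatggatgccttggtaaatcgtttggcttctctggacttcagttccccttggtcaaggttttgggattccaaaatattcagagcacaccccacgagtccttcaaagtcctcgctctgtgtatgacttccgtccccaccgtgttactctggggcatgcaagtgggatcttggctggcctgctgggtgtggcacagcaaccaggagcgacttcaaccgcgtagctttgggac
The printed window of Col5a1 held 2 GC boxes at 76.4% GC, that of Col6a2 held 1 at 59.2% GC, and that of Col15a1 held 0 at 53.6% GC. The Col6a2 window that is not printed held 3. The RefSeq start of Col15a1 lies 149 bases from the start in the files, so its window belongs to another start. GC boxes were in at least 1 window of 21 of 35 chains found in the RefSeq table, and in 32.7% of 32851 single promoter windows of the same length. Some chains have more than 1 window, so the count of chains and the share of windows are in unlike units. CCAAT, read on both strands as ATTGG, was found for 13 chains and in 33.8% of windows. TATAAA, or TTTATA, was found for 5 chains and in 12.4% of windows. None of the 3 printed windows held CCAAT or TATAAA, but the windows of Col4a1, Col4a2 and Col5a3 each held 1 CCAAT box. These letters are a description of the windows.

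Fibril-associated collagens, which sit on the surface of fibrils, had 6 tested chains and a class median of -0.24. Only Col16a1 reached an unadjusted limma p under 0.05 among them. It read 4.03, 2.35, 2.97 and 4.10 FPKM in the controls, against 1.16, 2.67, 1.32 and 1.77 FPKM in the knockouts, where KO6 lay above WT2 (difference -0.68, SE 0.22, limma adjusted p = 0.48, exact permutation p = 0.0571). Col12a1, a tension-bearing collagen of tendon and muscle sheaths and the highest of this class, read 2.83, 3.39, 4.91 and 5.91 FPKM in the controls, against 6.45, 1.54, 4.61 and 2.75 FPKM in the knockouts, with KO5 the highest of all mice. Col14a1, a fibril regulator, had means of 2.97 and 2.201 FPKM, and Col22a1, a collagen of the muscle-tendon junction, 2.94 and 2.06 FPKM. For Col12a1, Col14a1 and Col22a1 the 95% intervals were -0.98 to 0.59, -0.81 to 0.24 and -1.12 to 0.32. Col20a1 and Col9a1 had intervals of -0.61 to 0.55 and -0.55 to 0.94. Col9a2, Col9a3 and Col19a1 stood under the filter.

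Of the remaining chains, Col7a1, the anchoring fibril collagen of skin, had means of 2.35 and 1.68 FPKM (95% interval of the difference -0.95 to 0.38) and read 1.69, 2.65, 3.92 and 1.15 FPKM in the controls, against 1.41, 1.63, 2.64 and 1.04 FPKM in the knockouts. Col8a1 and Col8a2, short-chain network collagens of vessel walls and eye, had intervals of -0.56 to 0.53 and -0.97 to 0.53. Col26a1 was high in WT4 alone, at 6.33 FPKM, with 1.99 FPKM in WT3 and at most 0.612 FPKM in the other 6 mice. Col17a1, the transmembrane collagen of skin hemidesmosomes, read 12.7 FPKM in KO6 and at most 0.388 FPKM in the other 7 mice. KO6 is the library with skin keratins. The difference was 1.02 (95% interval -0.71 to 2.76), and without KO6 the chain lay under the filter and was not tested. The other chains under 1 FPKM in this group were Col28a1 and Col10a1, and among transmembrane chains Col13a1, Col23a1 and Col25a1. Col13a1, a collagen of the neuromuscular junction, read 0.342 to 0.471 FPKM in the controls, against 0.135 to 0.656 FPKM in the knockouts.

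**Figure D3:**
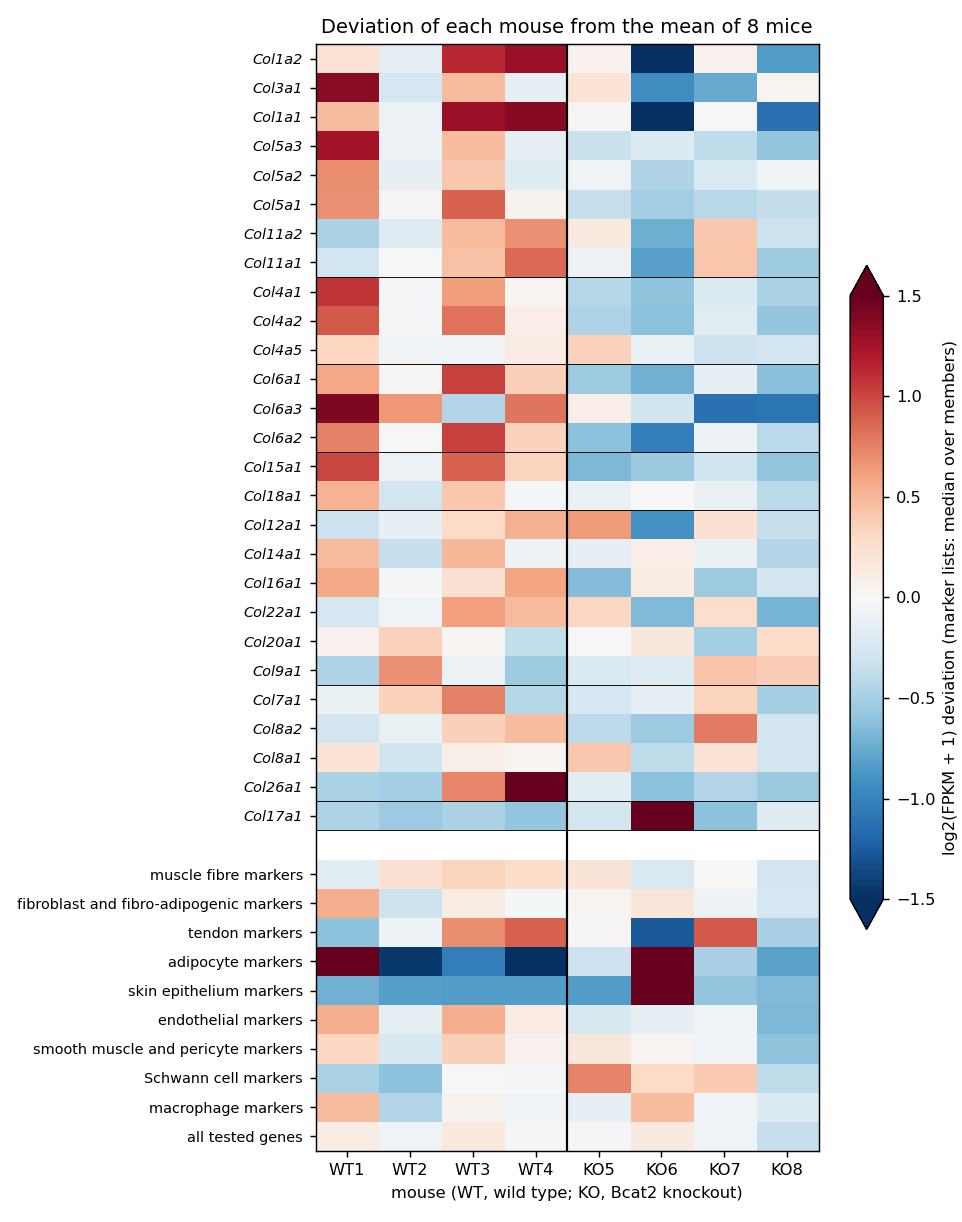
Deviation of each mouse from the mean of the 8 mice in log2(FPKM + 1) for the 27 tested chains, and below them the median deviation of each marker list and of all tested genes; the colour scale ends at 1.5 either way. WT1 and WT3 are high for Col4a1, Col4a2, Col6a1, Col6a2 and Col15a1, WT3 and WT4 for type I and the tendon markers, and WT2 lies near 0 for most chains.

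By mouse, the chains' median deviation was 0.47, -0.09, 0.48 and 0.11 in WT1 to WT4 and -0.12, -0.55, -0.12 and -0.41 in KO5 to KO8. WT2, at -0.09, lay barely above KO5 and KO7, so WT1 and WT3 stood well above every knockout and WT2 did not. The highest of the 8 mice was a wild type for 22 of the 27 chains, and the lowest was a knockout for 26, KO6 for 15 of them. The share of all tested genes with such extremes was not counted, so these counts cannot be called particular to the chains. The median deviation of all tested genes was 0.11, -0.07, 0.16 and -0.03 in WT1 to WT4, and -0.02, 0.14, -0.06 and -0.35 in KO5 to KO8. KO6 and WT1 are the libraries with high adipocyte markers, and WT1 was among the highest for the chains and KO6 the lowest. Without WT1 and KO6, 9 of 26 chains were lower at an unadjusted p under 0.05, against 7.14% of all genes, and the median was -0.44. Fibroblast and fibro-adipogenic markers included the receptor Pdgfra and the proteoglycan decorin (Dcn). Of these markers, 8 of 9 were below 0, where 63.6% of all tested genes are. The median of the list was -0.10, close to the all-gene -0.12. At an unadjusted limma p under 0.05, 0 were lower, against 7.33% of all tested genes, and 0 higher, against 2.99%. Their sums were 451 to 623 FPKM in the controls, against 447 to 659 FPKM in the knockouts, but this sum is mostly Dcn (328 and 358 FPKM, wild-type and knockout means), the 1 member above 0.

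Ratios within a mouse cancel differences in library scaling, and 9 pairs of chains were compared by exact permutation test. The pairs were picked with earlier results of these data known. Both chains of the type IV trimer varied little against each other, with Col4a1 over Col4a2 at 1.65, 1.51, 1.31 and 1.44 in wild type and 1.56, 1.55, 1.48 and 1.66 in knockouts (log2 difference 0.09, pooled SD 0.11, exact permutation p = 0.314). Col6a1 over Col6a2 was 1.11 ± 0.073 in the controls, against 1.199 ± 0.216 in the knockouts (SD, n = 4 each, exact permutation p = 0.514). Col6a3 over Col6a1 ran from 1.24 to 1.62 in WT1, WT2, WT4, KO5 and KO6 but was 0.2998 in WT3, 0.404 in KO7 and 0.608 in KO8, a spread that crossed genotype (exact permutation p = 0.857).

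For 3 pairs the groups did not overlap. Col15a1 over Col18a1 read 6.53, 6.49, 6.72 and 6.73 in wild type and 3.36, 3.36, 4.59 and 5.07 in knockouts (log2 difference -0.72). Col5a1 over Col5a2 read 0.559, 0.610, 0.833 and 0.661 in wild type and 0.409, 0.481, 0.439 and 0.413 in knockouts (log2 difference -0.60). Col1a1 over Col1a2, whose product holds Col1a1 in excess, read 0.711, 0.613, 0.674 and 0.633 in wild type and 0.578, 0.4998, 0.576 and 0.481 in knockouts (log2 difference -0.30). Each had an exact permutation p = 0.0286, which became 0.0858 after Benjamini-Hochberg adjustment over the 9 pairs, so none passed. Col3a1, Col6a1 and Col4a1, each over Col1a1, had overlapping groups (exact permutation p = 0.229, 0.343 and 0.314), with differences of 0.85, 0.51 and 0.69 on the log2 scale against pooled SDs of 0.99, 0.70 and 0.87.

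**Figure D4:**
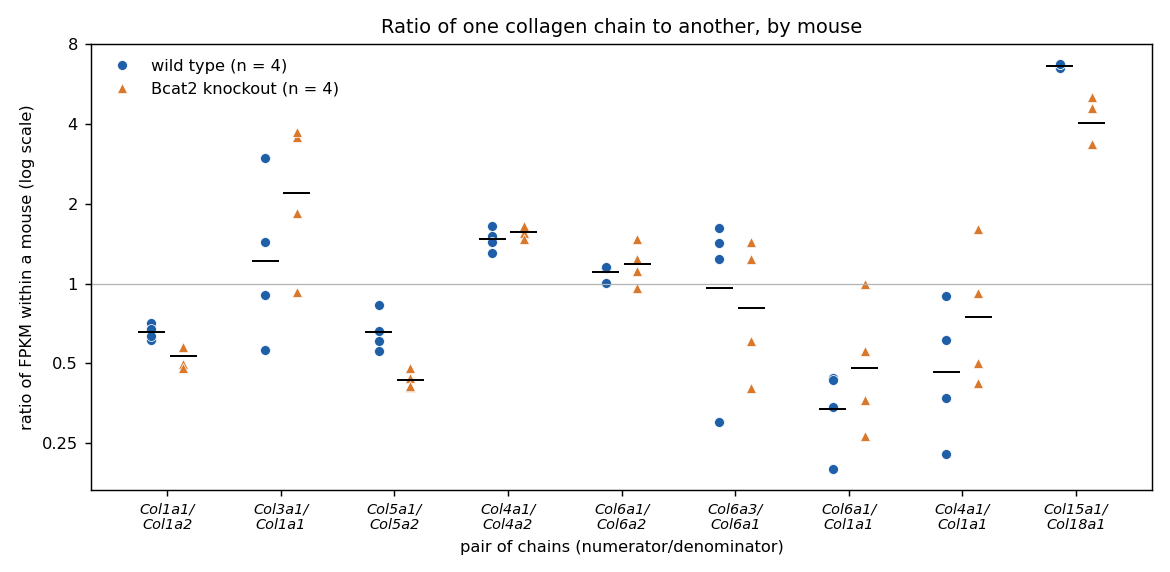
Ratio of the FPKM of one chain to another within each mouse (log scale) for 9 pairs, with circles for wild type, triangles for Bcat2 knockout (n = 4 each) and bars at the geometric means. Points of the 2 genotypes do not overlap for Col1a1/Col1a2, Col5a1/Col5a2 and Col15a1/Col18a1, and Col6a3/Col6a1 is low in WT3, KO7 and KO8.

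Genes that fold, cut, cross-link, break down and bind collagen were read from 6 lists, and 0 of their 68 tested members passed the adjusted limma threshold. The counts below stand against 7.33% of all tested genes lower and 2.99% higher at an unadjusted limma p under 0.05, and the medians against -0.12. Folding and modification enzymes had a median of -0.27 over 17 genes, with 2 lower at that level, P4ha2 and Plod1, a prolyl and a lysyl hydroxylase. P4ha2 had means of 7.84 and 5.32 FPKM and Plod1 of 9.09 and 6.20 FPKM. Next by p came Leprel4 (3.15 and 5.96 FPKM) and Serpinh1, the collagen chaperone HSP47 (37.3 ± 19.0 and 22.5 ± 5.29 FPKM, SD, n = 4 each). Procollagen processing and cross-linking genes had a median of -0.21 over 6 genes, with Adamts2, which removes the N-propeptide, at 2.55 ± 0.657 and 1.48 ± 0.182 FPKM and no overlap. Bmp1, the C-proteinase, had means of 5.51 and 4.00 FPKM, Lox, a cross-linking oxidase, 4.805 and 7.73 FPKM, and Loxl1 5.29 and 3.91 FPKM.

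Genes of collagen breakdown and its inhibitors, Timp1 to Timp4 among them, had a median of -0.40 over 12 genes. At an unadjusted limma p under 0.05, 3 were lower, Ctsk, Mmp15 and Mmp2, against 7.33% of all tested genes, and 0 were higher, against 2.99%. The collagen-degrading cathepsin Ctsk had means of 8.47 and 5.58 FPKM, Mmp2 of 21.3 and 13.8 FPKM, Mmp15 of 5.66 and 3.65 FPKM and Mmp14 of 5.72 and 3.83 FPKM. Collagen receptors had a median of -0.22 over 6 genes, with 0 at an unadjusted limma p under 0.05. Lowest in p came Itga1, the integrin chain that binds type IV collagen (1.57 and 1.04 FPKM), then Antxr2, Itgb1 and Ddr2 (3.19 and 2.56, 68.6 and 56.4, and 3.10 and 2.55 FPKM).

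Other basement membrane genes had a median of -0.32 over 11 genes, and 1 was lower at an unadjusted limma p under 0.05. Nid1, the linker of laminin and type IV networks, read 15.6 ± 4.12 and 8.84 ± 1.11 FPKM (SD, n = 4 each) with no overlap. Laminin chain Lamb2 (16.1 and 11.9 FPKM), the collagen-binding Sparc (246 and 163 FPKM) and the peroxidase Pxdn (4.60 and 2.56 FPKM), which cross-links type IV collagen, came next. In the TGF-beta list, the pathway that drives collagen transcription, the median was -0.24 over 16 genes, and 3 were lower at an unadjusted limma p under 0.05, against 7.33% of all tested genes. Smad3, its transcription factor, read 16.6 ± 4.42 and 8.18 ± 1.81 FPKM (SD, n = 4 each) with no overlap (difference -0.93, limma adjusted p = 0.48). Ltbp4 and Fbn1, which store latent TGF-beta, had means of 19.6 and 11.4 FPKM and of 6.12 and 3.86 FPKM, and Ltbp3 of 8.34 and 5.63 FPKM. The target Ctgf, chosen after its values were seen, had a difference above 0, at 11.7 ± 3.27 and 21.6 ± 11.4 FPKM.

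In the authors' deposited table, 13 of the 44 chains carry the flag for p under 0.05 and 10 that for p under 0.001. They are Col3a1, Col26a1 and Col17a1, which had a limma p over 0.05 here, and 10 of the 11 chains that had one under it, all but Col16a1. Of the 27 chains over the filter the first flag holds for 48.1%, and of all genes over it for 20.2%. The second flag holds for 10 of these 27 chains and for 1203 of the 11118 genes. Which test set those flags is not stated in the labels or headers.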

How the data were processed

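Gastrocnemius RNA of 8 mice was sequenced from TruSeq RNA v2 libraries, 50 cycles from one end, aligned to mm10 with TopHat 2.0.9, and the authors computed FPKM of uniquely mapped reads with Cufflinks, version 2.0.2 per the labels' protocols and 2.2.1 per the submitters' processing notes. No source used here gives the annotation or the strand setting. Other deposited columns hold the authors' means and flags of 0 or 1 for their p-value, per the file headers.

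The row with the highest mean was used per symbol. Genes with a mean of at least 1 FPKM were tested by limma-trend (limma 3.58.1, R 4.3.3) on log2(FPKM + 1), 2-sided, genotype as the only term, Benjamini-Hochberg adjustment over all genes, threshold 0.05. This scale understates changes of low genes. Ratios were tested by 2-sided exact permutation over 70 labelled splits. FPKM keep no read totals, so depth is relative (mode of the ratios of values under 0.3 FPKM to those of WT2), no counting intervals are given, and the spread of 4 mice sets the precision. Positions count from 1 and matched the GENCODE start for 40 of 44 chains. Annotated genes that overlap a chain can share its reads.

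Members, lists, pairs and tests were chosen with earlier results of these data known. Every tested chain is named; mouse values are given for those with an unadjusted p under 0.05 and the highest of each class, and, chosen after seeing them, for Col3a1; list genes are up to 4 per list by smallest p; chains under the filter are named to account for them, with ranges for Col6a6 and Col13a1. Alternatives were other pseudocounts (0.1, 0.5), filters, scalings, eBayes settings, row sums, zeros as missing and mice left out; removing WT3, WT4 and KO7, or a loess trend on length and GC (span 0.5), was added after seeing the data. The code was tested on simulated data.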

Additional observations from a re-analysis of the deposited data

Results flagged for a closer look

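Among 54 groups of 4 mice (27 tested chains, 2 genotypes), 2 held a mouse whose gap to the next passed Dixon's 95% limit, where chance gives about 1 in 20. Col17a1 in KO6, at 12.7 FPKM, stood above the next knockout at 0.388 FPKM. KO6 is also the library with skin keratins. Col8a2 in KO7, at 3.13 FPKM, stood above the next knockout at 0.980 FPKM, and KO7 had the highest tendon markers. Their part was not tested. Among 18 groups of chain ratios, 1 was set apart, Col6a1 over Col6a2 in WT1, at 1.00 against 1.15 in the other wild-type mice.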

How the results depend on the processing

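No paired analysis was possible because the labels give no batch and nothing that pairs a wild-type mouse with a knockout. The knockout columns, numbered 5 to 8, also carry none of the labelled numbers 1 to 4. No chain passed the adjusted threshold under any of 20 alternatives. Of all chains, 11 were lower at an unadjusted p under 0.05, and 8 to 11 with 1 mouse left out, where without WT4 Col1a2 was lost and Col5a2 gained. Each of the 11 kept its lower mean under every alternative that tested it. The count was 7 without WT3, WT4 and KO7 (of 24 chains, against 1.72% of all genes) and 7 with the length and GC trend removed. Median differences moved with the filter: with no filter they were -0.24 for all chains, -0.14 for type IV and -0.63 for type VI, and with a mean of at least 5 FPKM -1.0 for all chains, where no fibril-associated chain was left. The fibril-associated median ran from -0.44 (without WT2) to -0.14 with 1 mouse left out. Over all genes, 3 passed the adjusted threshold, 3 to 8 with 1 mouse left out, 10 without WT1 and KO6, 11 without WT3, WT4 and KO7, and 1 with zeros as missing. At an unadjusted p under 0.05, 815 genes were lower and 332 higher, with 349 to 954 and 203 to 495 when 1 mouse was left out, 514 lower at a mean of at least 5 FPKM, 190 and 110 without WT3, WT4 and KO7, and 750 and 612 higher after median-ratio and quantile scaling, so scaling moves the split over all genes (574 and 651 lower). Chains near 0 changed sign: Col20a1 was 0.06 and 0.01 and Col8a1 0.08 and 0.06 after median-ratio and quantile scaling, and Col8a1 0.18 without WT1 and KO6. With 1 mouse left out, Col8a1 ran from -0.15 to 0.11, Col20a1 from -0.16 to 0.13 and Col12a1 from -0.44 to 0.08. Without WT3, WT4 and KO7, Col12a1 was 0.01, Col9a1 -0.13 and Col11a2 0.03. With the length and GC trend removed, Col7a1, Col4a5 and Col18a1 were 0.01, Col8a2 0.04, Col11a2 0.09, Col8a1 0.14 and Col20a1 0.25. The ratio of Col6a1 to Col6a2 was -0.01 to 0.19 with 1 mouse left out and -0.06 without WT1 and KO6, and that of Col6a3 to Col6a1 -0.81 to 0.09. The cause of these changes was not tested. Depth is known only in relative terms, which limits chains under 1 FPKM most.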
